A study of Homo sapiens with 9 samples.

Results

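The comparison described here set M0 THP-1 macrophages given cisplatin against M0 THP-1 macrophages given vehicle. THP-1 is a human monocytic leukaemia cell line, and all cells of the study were first driven to a macrophage-like (M0) state with the phorbol ester PMA. The cisplatin group received 0.5 µM cisplatin and the vehicle group vehicle, each for 16 h before total RNA was taken. The remaining group received 100 nM osimertinib, an inhibitor of mutant epidermal growth factor receptor, for the same 16 h. Each group had 3 biological replicates by its labels, and each replicate was measured on its own Affymetrix Human Gene 2.0 ST array. The differences therefore rest on 6 of the 9 arrays. The osimertinib arrays also entered the estimate of the spread and the level limit, and with the 6 arrays alone 1118 genes rose and 1014 fell. Members were taken as all rows of the deposited value table that carry 1 gene symbol, with the brightest row kept for each gene. That gave 14884 genes, of which the 7442 at or above the median gene level of 4.28 were tested. The level is the mean over all 9 arrays, so a gene dim with vehicle could pass the limit through its treated arrays. Values are array intensities on a log scale that was read as log2, and differences are cisplatin minus vehicle on that scale. A gene is said to have risen or fallen where its adjusted p in limma was under 0.05. The cells are a single line in culture, so p-values measure the spread between cultures of that line and not between donors.

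Cisplatin is a platinum drug that enters cells, reacts with purines and joins neighbouring bases or opposite strands of DNA. Its adducts stall replication forks and RNA polymerases, and they are removed by nucleotide excision repair, by interstrand crosslink repair and by homologous recombination. Platinum also binds thiols of proteins and glutathione. Macrophages are professional phagocytes that release chemokines, take up lipid and dying cells and remodel matrix. PMA, which activates protein kinase C, slows or stops the division of THP-1 cells as they differentiate.

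Vehicle and cisplatin arrays separated. Along the first principal component of all tested genes, which took up 57.7% of the variance, the vehicle arrays lay at -21.2 to -19.6 and the cisplatin arrays at 9.76 to 10.5. The osimertinib arrays lay at 7.70 to 12.2 on it, a range that contains the cisplatin arrays. This component therefore parted vehicle from either drug and was not specific to cisplatin. Correlations across genes were 0.986 to 0.987 between vehicle arrays, 0.983 to 0.991 between cisplatin arrays and 0.944 to 0.954 between the groups. Cisplatin replicate 1 lay away from the other two on the second component, at 15.5 against -1.46 and 1.25, and its mean absolute deviation from its group mean was 0.123 against 0.0939 and 0.0792. List counts below are therefore also given without that array where they changed. Of 12 macrophage markers 8 were named and 5 tested. The summed linear level of the 8 named rows was 1237 to 1403 on the vehicle arrays and 1655 to 1865 on the cisplatin arrays. CD68, a lysosomal glycoprotein of macrophages, and CSF1R, the receptor for the growth factor that maintains them, both rose. Being bright, they make up most of the sum. The other tested markers, TYROBP, CD14 and MSR1, were not called, and the rows named LYZ, MARCO and CD163 lay below the level limit. No fibroblast, erythroid or neutrophil marker reached the limit. Single markers of other cell types did, such as KRT18 (level 7.49, which fell by 0.35), NCAM1 (6.48) and PECAM1 (6.01). The call of KRT18 was lost with some array left out. The summed level of 4 neutrophil marker rows, all below the limit, was 30.5 to 33.1 on the vehicle arrays and 37.1 to 53.1 on the cisplatin arrays. Of these rows CSF3R and MMP8 were each 0.58 higher, and CXCR2 and CEACAM8 were 0.18 and 0.08 lower. Vehicle and cisplatin sums also did not overlap for NK cell markers (139 to 144 and 157 to 161) and B cell markers (30.2 to 36.7 and 37.5 to 41.1). The epithelial sum was lower with cisplatin (226 to 282 and 193 to 222). RNA was taken from whole cultures, so a change in the share of cells in a state and a change in RNA per cell cannot be told apart.

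Of the 7442 genes tested, 1227 rose (16.5%) and 1081 fell (14.5%). Most changes were small. The median difference was 0.45 among genes that rose and -0.47 among those that fell, and 71.2% of the changed genes moved by less than 1.5-fold. At least 1.5-fold, 321 genes rose and 344 fell, and at least 2-fold 54 rose and 85 fell. The 3 cisplatin arrays did not overlap the 3 vehicle arrays for 3151 genes (42.3% of those tested), including 2223 of the 2308 changed genes. The median standard error of a difference was 0.108, and the number of arrays, 3 a group, limits this precision. With cisplatin replicate 1 left out, 1355 genes rose and 867 fell, 1967 of the 2308 calls held and 0 turned sign. A further quantile normalization of the table moved the split to 1968 higher and 975 lower, 66.9% of calls against 53.2%, and moved the median difference of all genes from 0.03 to 0.11. The balance of rises over falls also turned with single arrays left out, to 885 higher and 1021 lower without cisplatin replicate 2, 886 and 927 without cisplatin replicate 3 and 968 and 970 without vehicle replicate 1. Genes named below held their call against vehicle with each array left out and under each other filter, scaling, variance model and choice of rows, unless an exception is given. Uncalled genes named as examples, and called ones beyond the 8 of a list with the smallest p, were picked after their values were seen.

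**Figure D1:**
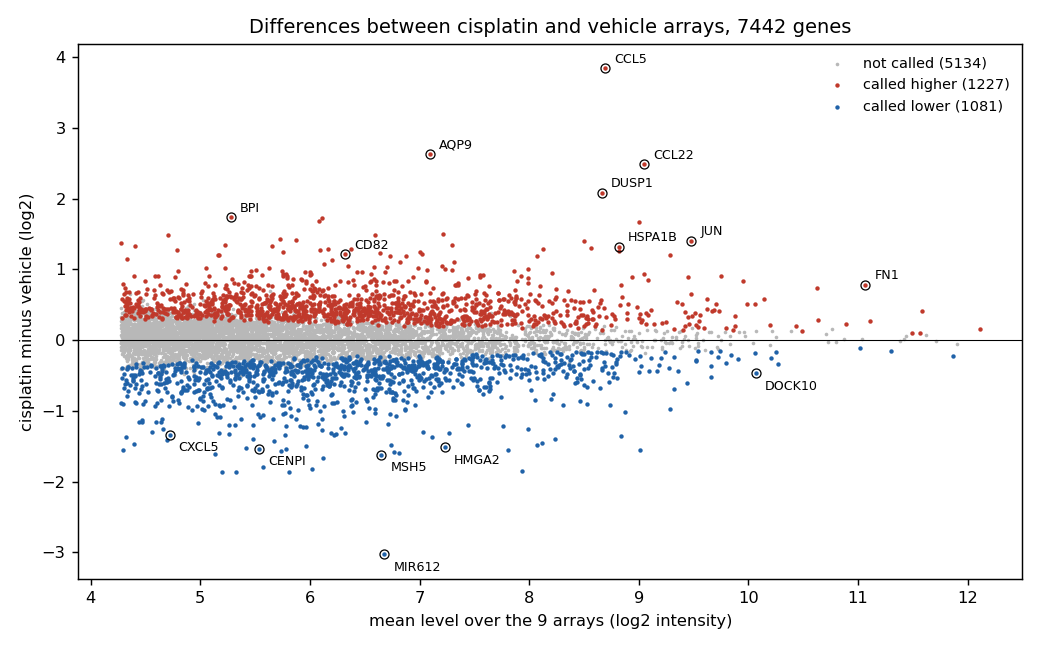
Each point is 1 of the 7442 tested genes, with its mean level over the 9 arrays (log2 intensity) on the horizontal axis and its cisplatin minus vehicle difference (log2) on the vertical axis. Red points rose, blue points fell and grey points were not called. CCL5 lies highest at 3.85 and MIR612 lowest at -3.03.

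Chemokines and surface molecules of the macrophage headed the rises. CCL5, a chemokine that draws T cells and monocytes, read 6.28, 6.18 and 6.38 on the vehicle arrays and 10.04, 10.16 and 10.17 on the cisplatin arrays. Every cisplatin array was above every vehicle array by several units, a rise of 3.85 (SE 0.060, 14.4-fold, adjusted p = 5.3e-14). CCL22, a ligand of CCR4 on regulatory and type 2 helper T cells, read 7.41, 7.35 and 7.54 with vehicle and 9.84, 9.98 and 9.95 with cisplatin. Its rise was 2.49 (SE 0.058, adjusted p = 4.5e-12). AQP9, an aquaglyceroporin that passes water, glycerol and small solutes, read 5.09, 5.43 and 5.42 with vehicle and 7.69, 8.05 and 8.09 with cisplatin, a rise of 2.63 (SE 0.114). These 3 genes and DUSP1, given below, were the only tested genes that rose at least 4-fold.

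The other CC chemokines did not all follow. CCL3 and CCL4, macrophage inflammatory proteins that attract monocytes, each rose by 0.65 (SE 0.174 and 0.166). CCL20, the ligand of CCR6, fell by 0.58, from 7.07, 7.31 and 7.13 to 6.54, 6.63 and 6.59. CCL17, which shares its receptor with CCL22, differed by 0.12 and was not called. Of the 6 CC chemokines tested 4 rose and 1 fell, with a median difference of 0.65 against 0.03 over all genes tested. With no level limit 5 of 15 CC chemokines rose and 1 fell, with a median of 0.15. The dim CCL24 then rose by 1.16 (adjusted p = 0.00017). Of 6 tested CXC chemokines 2 fell and 0 rose, against 14.5% and 16.5% of all genes, and both are neutrophil attractants. CXCL5 averaged 5.69 ± 0.30 (SD, n = 3) with vehicle and 4.35 ± 0.34 (SD, n = 3) with cisplatin, a fall of 1.34 (SE 0.182), and its groups did not overlap. CXCL8 fell by 0.49 and CXCL2 differed by -0.01. With no level limit 2 of 13 rose and 2 fell, the rises being those of the dim CXCL9 (0.52, adjusted p = 0.025) and CXCL10 (0.41, adjusted p = 0.030). CCL2, the main monocyte chemoattractant, lay at a mean of 2.63, below the level limit.

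Receptors and ligands that face other immune cells changed mostly upward. Of 5 chemokine receptors tested, CXCR4, the receptor for CXCL12, rose by 1.10 (SE 0.104), CCR1 rose by 0.82 and C5AR1, the receptor for the complement fragment C5a, fell by 0.56. Of 7 cytokine receptors tested 6 rose and 0 fell, against 16.5% and 14.5% of all genes, with a median of 0.34. They included IL4R, the interleukin-4 receptor chain, at 0.71, CSF1R at 0.50 and IFNGR2, a chain of the interferon gamma receptor, at 0.48. No cytokine of a list with 7 tested members rose or fell. TNF was among them at -0.17 (adjusted p = 0.30). With no level limit IL10, at a vehicle mean of 2.13, rose by 0.52 (adjusted p = 0.0040). Among 12 tested ligands for T cells, 5 rose (41.7%) and 1 fell (8.33%). PDCD1LG2, the PD-1 ligand known as PD-L2, rose by 0.98, from 4.08, 4.42 and 4.30 to 4.97, 5.58 and 5.18. Its vehicle values lay around the level limit of 4.28. ICAM3, VSIG4, NECTIN2 and VSIR rose by 0.68, 0.54, 0.41 and 0.40. CD58, a ligand of CD2 on T cells, fell by 0.35, with an adjusted p of 0.17 when an array was left out. Without cisplatin replicate 1 the counts were 5 and 0. With no level limit 7 of 16 T cell ligands rose and 0 fell, the dim CD274 (PD-L1) rising by 1.05 (adjusted p = 0.00031).

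Genes often used as markers of alternative (M2) activation rose in 5 of 9 tested cases and none fell, against 16.5% and 14.5% of all genes, with a median of 0.54. CCL22 led this list by size, followed by CD209, the C-type lectin DC-SIGN, which read 6.33, 6.45 and 5.99 with vehicle and 7.28, 7.48 and 7.58 with cisplatin. FN1, VSIG4 and PDCD1LG2 are the other risen members, and VSIG4 and PDCD1LG2 are T cell ligands too. Among 6 tested genes of the M1 list IRF1 rose, by 0.49, with an adjusted p of up to 0.076 when an array was left out. With no level limit 7 of 15 genes of the M2 list and 5 of 13 of the M1 list rose and none fell. Dim M2 genes that rose were CCL24 (1.16) and IL10 (0.52). Dim M1 genes that rose were CXCL9, CXCL10, CD86 (0.62) and SOCS3 (0.61). The myeloid master factor SPI1 (PU.1) differed by 0.02 and CD14 by 0.07, and neither was called. IRF8, a monocyte and dendritic cell factor, rose by 0.86 (SE 0.118), ETV3 by 0.60, TFEC by 0.46 and ETS2 by 0.41, while RUNX2 fell by 0.49 and RUNX1 by 0.31 (adjusted p of up to 0.082 when an array was left out). Of 18 myeloid transcription factors 4 rose and 2 fell, 22.2% and 11.1% against 16.5% and 14.5% of all genes.

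**Figure D2:**
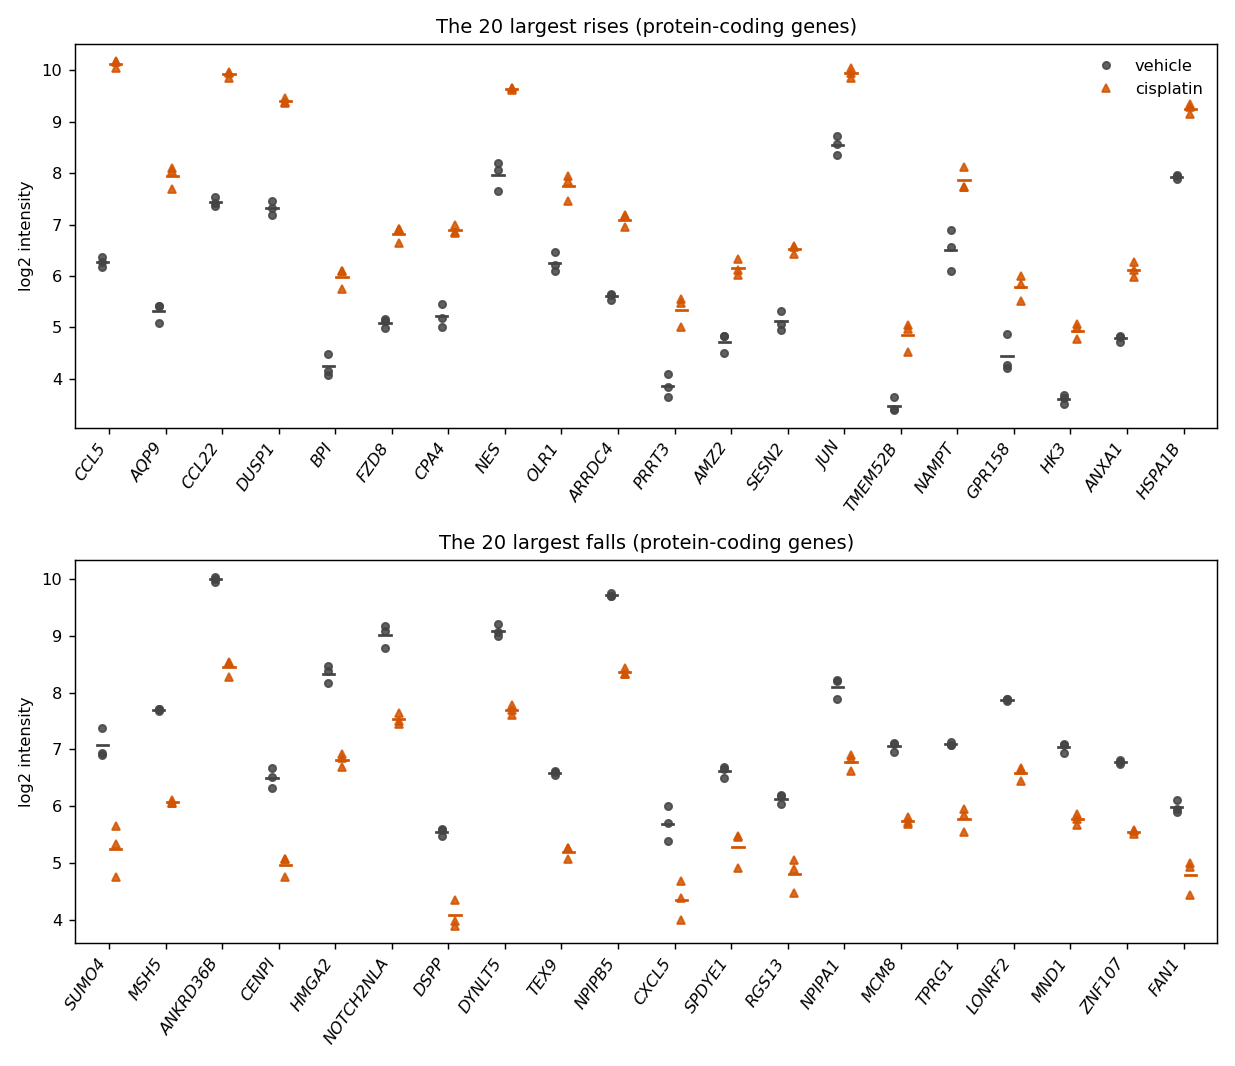
The 20 largest rises (top) and the 20 largest falls (bottom) among protein-coding genes whose cisplatin and vehicle arrays do not overlap. Each point is 1 array (log2 intensity), grey circles are vehicle, orange triangles are cisplatin and bars are the means of 3 arrays. The vehicle and cisplatin points are separated for every gene shown, which is how these genes were chosen.

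Most of the tested heat shock genes rose. They are switched on by the factor HSF1, which binds repeats of the letters GAA and TTC when unfolded protein accumulates. Promoter windows were taken from RefSeq (GRCh38.p14) and searched on both strands for GAANNTTC, from 250 bases before to 50 bases after the RefSeq start of each gene. The letters were present in 4 of the 8 risen heat shock genes that have a window (HSPA1A, HSPA1B, HSPA1L and HSPB1), in 5 of the 12 tested ones, in 4.25% of the 5861 tested genes with a window and in 6.87% of all 27305 windows. The windows of HSPA1A and HSPA1L overlap and share the element. The promoters of HSPA1A (chr6:31815328-31815542, plus strand) and HSPB1 (chr7:76302458-76302672, plus strand) are shown because they belong to risen members of both families, with the match in capitals and the last base just before the RefSeq start.
HSPA1A: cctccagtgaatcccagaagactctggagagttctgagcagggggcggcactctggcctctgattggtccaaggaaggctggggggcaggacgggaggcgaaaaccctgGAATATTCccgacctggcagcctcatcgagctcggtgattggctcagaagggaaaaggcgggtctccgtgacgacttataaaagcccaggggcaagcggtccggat
HSPB1: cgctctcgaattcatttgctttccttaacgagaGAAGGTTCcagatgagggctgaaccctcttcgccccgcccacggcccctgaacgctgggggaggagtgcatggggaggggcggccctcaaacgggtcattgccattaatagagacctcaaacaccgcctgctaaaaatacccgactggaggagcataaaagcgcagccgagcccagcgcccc
The matches begin 106 and 182 bases before the start. HSPA1B, an inducible HSP70, read 7.97, 7.95 and 7.89 with vehicle and 9.15, 9.34 and 9.28 with cisplatin, a rise of 1.32 (SE 0.059, adjusted p = 1.0e-08). HSPA1A rose by 1.26 (SE 0.072), and the array cannot part these nearly identical genes. Their neighbour HSPA1L rose by 0.91. HSPB1, the small heat shock protein HSP27, read 8.18, 7.90 and 7.99 with vehicle and 8.31, 8.60 and 8.53 with cisplatin, a rise of 0.46. Partners of HSP70 rose with it. The nucleotide exchange factors HSPH1 and HSPA4 rose by 0.84 and 0.51, the co-chaperones BAG3 and STIP1 by 0.54 and 0.46, and HSF1 itself by 0.34. In all 9 of 13 tested members rose and 1 fell, against 16.5% and 14.5% of all genes, with a median of 0.46. The 9 rises include the factor HSF1 itself and count HSPA1A and HSPA1B separately. The fall was that of CHORDC1 by 0.39, which lost its call without cisplatin replicate 1 (adjusted p = 0.14), leaving 9 rises and 0 falls. The mitochondrial chaperone HSPD1 differed by 0.17 and was not called.

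Targets of NRF2, the factor released from KEAP1 when thiols are modified, rose in 8 of 13 tested cases and none fell. Over all genes 16.5% rose and 14.5% fell. The median of the NRF2 targets was 0.27, and 7 rose without cisplatin replicate 1. SRXN1, which repairs oxidised peroxiredoxins, read 5.21, 5.43 and 5.26 with vehicle and 5.93, 6.27 and 6.27 with cisplatin, a rise of 0.86 (SE 0.117). PGD, an enzyme of the pentose phosphate pathway, rose by 0.71. HMOX1, which breaks down haem, read 9.17, 9.26 and 9.18 with vehicle and 9.77, 9.93 and 9.89 with cisplatin, a rise of 0.66 (SE 0.050). OSGIN1 and TXNRD1 rose by 0.44 and 0.37. The other 3 risen members were TXN at 0.27, PRDX1 at 0.24 and KEAP1 at 0.44, and each lost its call with some array left out (adjusted p up to 0.12, 0.16 and 0.056). The metallothionein MT1X, which binds metal ions through cysteines, rose by 0.55 and was the only 1 of 3 tested metallothioneins to do so, against 2 without cisplatin replicate 1. The letters TGACNNNGC of the antioxidant element were in 2 of the 10 tested members with a window (PGD and TXNRD1), against 15.7% of tested genes.

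The stress pathways of the endoplasmic reticulum and of amino acid shortage showed fewer calls. Of 17 tested targets of ATF4, 6 rose and none fell, against 16.5% and 14.5% of all genes. Their median was 0.14, and 7 rose without cisplatin replicate 1. SESN2, a stress-induced brake on the kinase complex mTORC1, read 4.95, 5.07 and 5.33 with vehicle and 6.43, 6.58 and 6.56 with cisplatin. Its rise of 1.41 (SE 0.105) was the largest on the list. PSAT1, of serine synthesis, rose by 0.64 and AARS1, the alanyl-tRNA synthetase, by 0.37. The rises of PHGDH, SHMT2 and GARS1 by 0.43, 0.29 and 0.25 were lost when an array was left out. ATF4 itself differed by 0.02 and ASNS by 0.15, neither called, and DDIT3 lay below the level limit. Of 12 tested genes of the unfolded protein response, SDF2L1, SEL1L and HYOU1 rose by 0.54, 0.45 and 0.32, and XBP1 also rose, with a call that did not hold under every setting. Without cisplatin replicate 1 the count of rises was 6. The abundant chaperone CALR, at 11.6 with vehicle, differed by 0.07 (adjusted p = 0.21).

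Immediate-early genes, which growth factors and stress kinases switch on without new protein synthesis, were higher in part. JUN, a subunit of AP-1, read 8.56, 8.73 and 8.35 with vehicle and 9.86, 9.96 and 10.05 with cisplatin, a rise of 1.41 (SE 0.082). EGR1 read 7.03, 7.11 and 7.10 with vehicle and 7.91, 8.02 and 8.07 with cisplatin. FOS rose by 0.84, JUNB by 0.67, MYC by 0.64, FOSL2 by 0.55, IER5 by 0.51 and KLF6 by 0.40. Of 17 tested members 9 rose and 1 fell, against 16.5% and 14.5% of all genes, with a median of 0.40. The counts were 10 and 1 without cisplatin replicate 1. The fall was that of IER3 by 0.45, which was lost when all rows of the gene were averaged (adjusted p = 0.098). MAFF rose by 0.42, with an adjusted p of up to 0.13 when an array was left out. FOSB, EGR3 and JUND lay between -0.16 and 0.04, and ATF3 differed by 0.22 (adjusted p = 0.086).

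Feedback inhibitors of the MAP kinases rose in 5 of 14 tested cases and none fell, against 16.5% and 14.5% of all genes. Their median was 0.13, and 6 rose without cisplatin replicate 1. DUSP1, a nuclear phosphatase that switches off p38 and JNK, stood far above the rest. It read 7.18, 7.31 and 7.45 with vehicle and 9.37, 9.46 and 9.38 with cisplatin, a rise of 2.09 (SE 0.066, 4.24-fold). DUSP6, which acts on ERK, rose by 0.52 (SE 0.038) and DUSP5 by 0.35. DUSP16 and DUSP3 rose by 0.36 and 0.31, and each lost its call when an array was left out (adjusted p of up to 0.092 and 0.15). SPRY4, an ERK feedback inhibitor of another kind, differed by 0.07 and was not called. The promoter of DUSP1 (chr5:172771196-172771410, minus strand) holds the letters TGACGTCA of the cyclic AMP response element, found in 3.43% of tested genes with a window and 1.98% of all windows. It is shown because DUSP1 is the fourth largest rise, with the match in capitals, 125 bases before the start.
DUSP1: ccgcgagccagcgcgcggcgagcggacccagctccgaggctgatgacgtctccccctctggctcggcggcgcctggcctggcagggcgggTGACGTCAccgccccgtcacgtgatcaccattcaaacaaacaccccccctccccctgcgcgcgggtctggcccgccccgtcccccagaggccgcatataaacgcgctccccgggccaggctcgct
Of the immediate-early genes that rose, 1 of 8 with a window held these letters, MAFF.

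Several genes of glucose use rose. HK2 and HK3, hexokinases that phosphorylate glucose, rose by 1.28 (SE 0.068) and 1.33 (SE 0.116), although HK3 overlaps UNC5A. With vehicle HK3 lay below the level limit, at 3.63, 3.68 and 3.50, and it was tested through its treated arrays. NAMPT, the rate-limiting enzyme of NAD salvage, rose by 1.35 and read 6.09, 6.89 and 6.56 with vehicle and 8.11, 7.73 and 7.74 with cisplatin. Of 14 tested genes of hypoxia and glycolysis 6 rose and 1 fell, against 16.5% and 14.5% of all genes, with a median of 0.20. The fall was that of STC1, given below. ARRDC4, an arrestin-like protein that curbs glucose uptake, read 5.66, 5.53 and 5.63 with vehicle and 6.95, 7.16 and 7.19 with cisplatin, a rise of 1.49 (SE 0.086). It is a target of MondoA, which pairs with MLX on the letters CACGTG. The list of MondoA targets also holds MLX, the partner of MondoA. Of its 7 tested members 4 rose and none fell, against 16.5% and 14.5% of all genes, and 5 rose without cisplatin replicate 1. KLF10 rose by 0.26, and MLX by 0.25 with a call lost under some settings. TXNIP, the best known target, rose by 0.24 and lost its call under 8 settings, with an adjusted p of up to 0.14 without cisplatin replicate 3. Of the 3 risen members with a window, ARRDC4, MLX and TXNIP, the letters CACGTG were in the target ARRDC4 and the partner MLX. They were in 10.4% of tested genes. The ARRDC4 promoter (chr15:97960488-97960702, plus strand) is printed because it belongs to the target with the largest rise, and the match starts 210 bases before the start.
ARRDC4: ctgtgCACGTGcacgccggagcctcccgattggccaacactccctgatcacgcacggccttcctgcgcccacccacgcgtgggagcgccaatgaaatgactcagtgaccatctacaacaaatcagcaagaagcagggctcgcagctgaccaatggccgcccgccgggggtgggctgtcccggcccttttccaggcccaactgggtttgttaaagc

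Lipid and lysosome genes included several rises. Of 15 tested genes of lipid handling, many of them targets of the sterol-sensing receptor LXR, 6 rose and none fell, against 16.5% and 14.5% of all genes, with a median of 0.18. The apolipoproteins APOC1 and APOE rose by 0.84 and 0.53, the lipid droplet coats PLIN3 and PLIN2 by 0.64 and 0.51, the lipase LPL by 0.44 and the ligase MYLIP by 0.44. OLR1, a scavenger receptor for oxidised LDL that overlaps TMEM52B, rose by 1.5. ACLY, which makes cytosolic acetyl-CoA, read 8.25, 8.27 and 8.48 with vehicle and 9.17, 9.22 and 9.31 with cisplatin. It led the cholesterol synthesis genes, which were split, with 4 of 17 risen and 3 fallen and a median of -0.01, shares near those of all genes. The counts were 5 and 1 without cisplatin replicate 1. Of 18 tested lysosomal genes 8 rose (9 without cisplatin replicate 1) and 3 fell, against 16.5% and 14.5% of all genes. Among the rises were the cathepsin CTSZ at 0.99, the ceramidase ASAH1 at 0.54 and the thioesterase PPT1 at 0.42. The falls were those of TPP1 and IDS by 0.27 and 0.33, and of CTSK. Autophagy was mixed, with 4 of 20 tested genes risen and 2 fallen, shares near those of all genes. GABARAPL1 rose by 1.28, ATG3 by 0.44, TAX1BP1 by 0.42 and the receptor SQSTM1 by 0.34. GABARAP, a close relative of GABARAPL1, fell by 1.08 and ATG7 by 0.66. GABARAP read 7.52, 7.57 and 7.32 with vehicle and 6.22, 6.57 and 6.39 with cisplatin, and it overlaps PHF23.

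The list of phagocytosis genes, which holds both promoters and inhibitors of the uptake of dying cells, had more falls than rises. Of 14 tested members 6 fell and 2 rose, with a median of -0.17, against 14.5% and 16.5% of all genes. MFGE8, a bridge between phosphatidylserine and integrins, read 7.37, 7.35 and 7.37 with vehicle and 6.14, 6.43 and 6.38 with cisplatin, a fall of 1.04 (SE 0.089). ELMO2, CD47, MERTK and CD36 fell by 0.64, 0.54, 0.44 and 0.26. ELMO2 helps to activate RAC at the phagocytic cup, CD47 is the signal that restrains phagocytes, MERTK is an efferocytosis receptor kinase and CD36 a scavenger receptor. CD24, the ligand of the inhibitory receptor SIGLEC10, fell by 1.15. LRP1 and SIGLEC10 rose by 0.52 and 0.57. Over all 22 named members, with no level limit, the counts were also 6 and 2, and the median was 0.03. In the leukotriene pathway ALOX5 fell by 0.62 and its partner ALOX5AP by 0.92, the latter from 6.71, 6.69 and 6.61 to 5.50, 5.90 and 5.85. The eicosanoid list as a whole was split, with 3 of 13 risen (23.1%) and 4 fallen (30.8%), and 2 and 3 without cisplatin replicate 1.

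Adhesion and matrix genes included some of the brightest changes. FN1 (fibronectin) read 10.55, 10.59 and 10.63 with vehicle and 11.28, 11.41 and 11.44 with cisplatin, a rise of 0.79 (SE 0.043), although its locus overlaps ATIC. PLEK, a protein kinase C substrate of blood cells, rose by 0.74 and the aminopeptidase ANPEP (CD13) by 0.59. SRGN, the core protein of secretory granules, rose by 1.20. The tetraspanins CD82, TSPAN14 and CD63 rose by 1.22, 0.77 and 0.31. Of 10 tested integrins and tetraspanins 5 rose and none fell, against 16.5% and 14.5% of all genes. Another tetraspanin, TSPAN3, rose by 0.64 on its brightest row and differed by -0.57 on the mean of all its rows, so its direction depends on the rows used. Of 19 tested matrix genes and proteases 7 rose (36.8%) and 3 fell (15.8%). MMP19 and CTSL rose by 0.57 and 0.42, and CTSK and THBS1 fell by 0.67 and 0.90. The anticoagulants THBD (thrombomodulin) and TFPI rose by 0.89 and 0.53. The intermediate filament protein NES (nestin) read 8.07, 8.19 and 7.65 with vehicle and 9.61, 9.65 and 9.65 with cisplatin, a rise of 1.67. The lamins were opposed, with LMNB2 up by 0.62 and LMNB1 down by 0.67. At the bright end of the falls, the Rac and Cdc42 activator DOCK10 fell by 0.47 and the lysosomal membrane protein LAPTM5, at 12.0 with vehicle, by 0.23 (SE 0.030).

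Other large rises belong to no common group. BPI, a bactericidal granule protein, read 4.49, 4.08 and 4.16 with vehicle and 5.75, 6.09 and 6.10 with cisplatin. Of its vehicle values only 4.49 was above the level limit. FZD8, a Wnt receptor, rose by 1.73 and CPA4, a carboxypeptidase, by 1.68. ANXA1, an annexin that restrains neutrophil recruitment, rose by 1.33, and the vesicle tethering subunit VPS18 and the adaptor SCIMP rose by 1.29 and 1.27. The deadenylase NOCT rose by 1.24. In the TGF-beta family the inhibitory SMAD7 rose by 1.01 and the ligand BMP6 by 0.92. These were 2 of 11 tested members (18.2%, against 16.5% of all genes), and 3 rose without cisplatin replicate 1. Interferon-stimulated genes were split, with 3 of 20 risen (15.0%) and 2 fallen (10.0%), shares near the 16.5% and 14.5% of all genes. BST2 and OASL rose by 0.71 and 0.68, and USP18 and SP110 fell by 0.60 and 0.51. Without cisplatin replicate 1 the rises numbered 4. Of 17 tested NF-kB targets 2 rose (11.8%) and 4 fell (23.5%), with CD83 up by 0.54 and CCL20 down, and 3 fell without cisplatin replicate 1. Of 19 apoptosis regulators 4 rose (21.1%) and 1 fell (5.26%), the rises including MCL1 at 0.40 and BAK1 at 0.43.

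**Figure D3:**
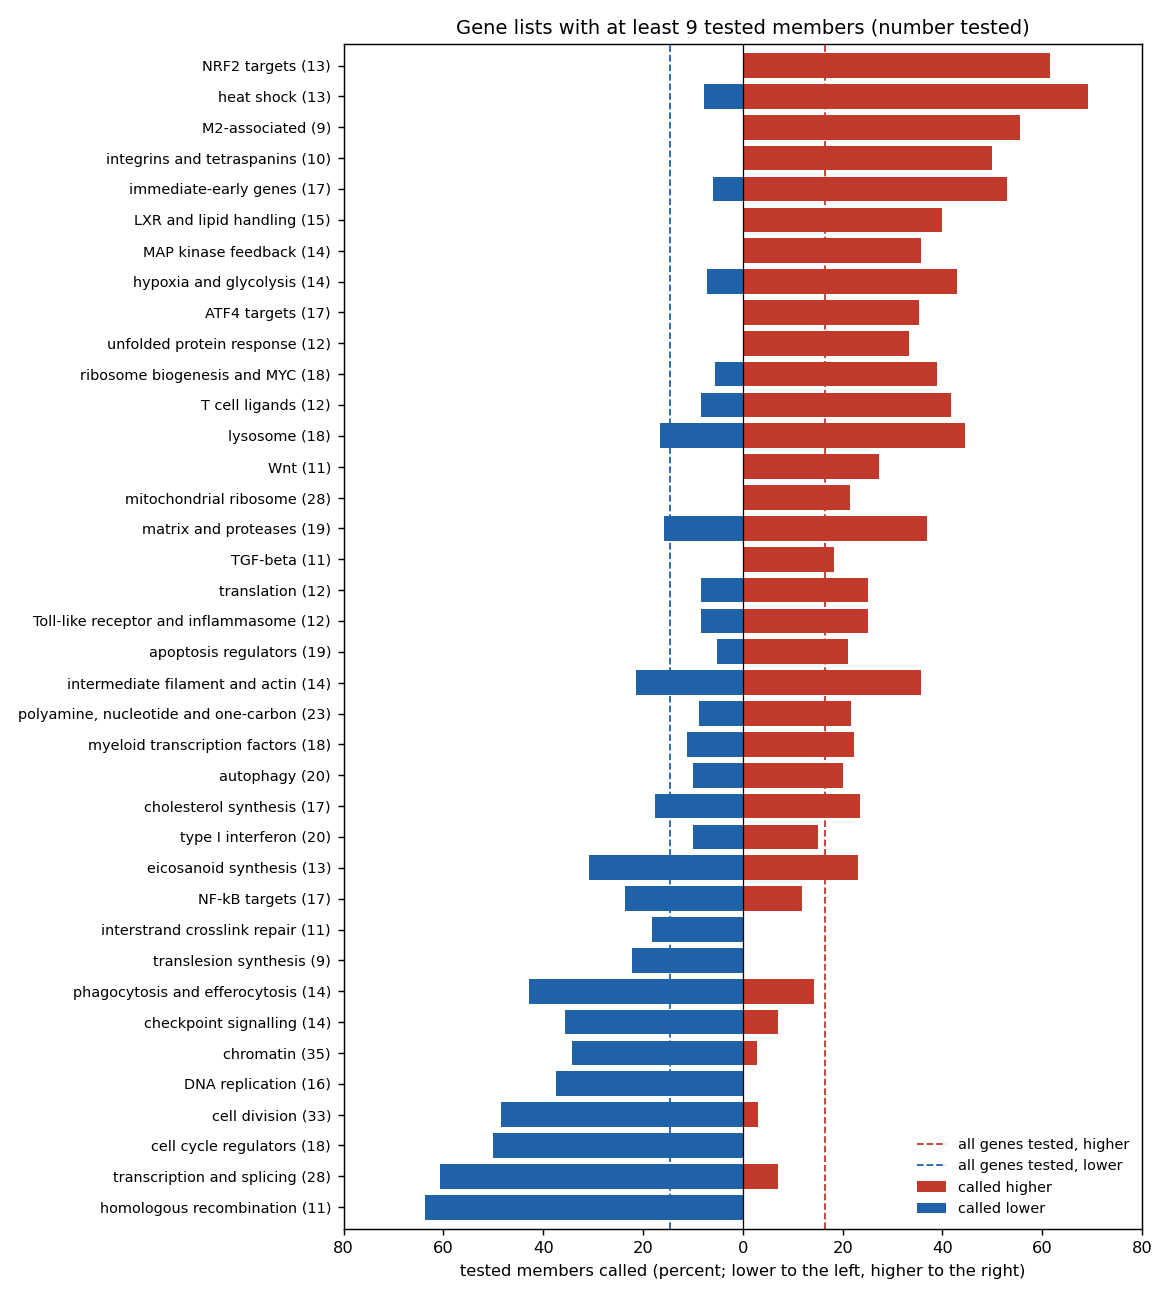
Share of tested members that rose (red, to the right) or fell (blue, to the left) for each gene list shown, each with at least 9 tested members, in percent, with the number tested in parentheses. Dashed lines mark the shares over all genes tested, 16.5% higher and 14.5% lower. NRF2 targets and heat shock genes stand at the top, and homologous recombination and splicing genes at the bottom.

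Among genes of biosynthesis, ribosome biogenesis genes and MYC targets rose in 7 of 18 tested cases, with 1 fall and a median of 0.18, against 16.5% and 14.5% of all genes. FBL, the methyltransferase of ribosomal RNA, read 5.44, 5.45 and 5.21 with vehicle and 6.21, 6.50 and 6.30 with cisplatin, a rise of 0.97. RRP12 and BYSL each rose by 0.63, HEATR1 fell by 0.36, and MXD1, which opposes MYC, rose by 0.66. The mitochondrial ribosome had 6 of 28 members higher (21.4%) and none lower, with MRPL44 at 0.62 and MRPL37 at 0.56. Of these 6 calls 3 held with each array left out. That count was 10 without cisplatin replicate 1 and 11 after quantile normalization. SAT1 and ODC1, which break down and make polyamines, rose by 0.67 and 0.41, while the nucleotide enzymes CTPS1 and RRM2 fell by 0.46 and 0.41.

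DNA damage genes were next examined, since cisplatin acts on DNA. RRM2B, a ribonucleotide reductase subunit that supplies nucleotides for repair, read 5.41, 5.58 and 5.42 with vehicle and 5.91, 5.96 and 5.96 with cisplatin, a rise of 0.47. GDF15, a stress-induced cytokine, fell by 0.30 and lost its call with an array left out, with an adjusted p of up to 0.082. CDKN1A, MDM2 and GADD45A were not analysed here.

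Repair genes fell or were not called. In homologous recombination, which copies an intact sister strand into a break, 7 of 11 tested members fell and none rose, with a median of -0.48. Over all genes 14.5% fell and 16.5% rose. Without cisplatin replicate 1 the falls in homologous recombination numbered 6. RAD54L, a motor protein that helps strand invasion, read 5.63, 5.45 and 5.68 with vehicle and 4.76, 4.56 and 4.86 with cisplatin, a fall of 0.86 (SE 0.112). The Holliday junction resolvase GEN1 fell by 0.77, from 6.71, 6.32 and 6.56 to 5.57, 5.80 and 5.91. RAD54B, XRCC2, BARD1 and EXO1 fell by 0.70, 0.57, 0.56 and 0.48. The fall of MRE11 by 0.43 was lost without cisplatin replicate 1 (adjusted p = 0.12), and NBN, its partner, differed by 0.20. RAD54L, GEN1 and RAD54B overlap LRRC41, SMC6 and FSBP, from which the array may not part them.

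Of 11 tested genes of interstrand crosslink repair only BRIP1 and FAN1 fell, by 0.65 and 1.20, and none rose. That share of falls, 18.2%, was near the 14.5% of all genes. BRIP1 is a helicase of the Fanconi anaemia pathway and FAN1 a nuclease that trims crosslinks, and FAN1 overlaps MTMR10. The other 9 lay between -0.16 and 0.42. In mismatch repair MSH5, a meiotic MutS protein that overlaps SAPCD1, read 7.71, 7.72 and 7.68 with vehicle and 6.12, 6.05 and 6.06 with cisplatin. It fell by 1.63 (SE 0.077, adjusted p = 1.5e-08), and EXO1, listed here too, also fell, whereas MSH6, MSH3, MLH3 and PMS2 were not called. These were 2 falls among 7 tested genes (28.6%). In translesion synthesis PRIMPOL and RAD18 fell by 0.69 and 0.40 and the other 7 tested members were not called. The share of falls was 22.2% of 9 genes, against 14.5% of all genes. Only 3 of 23 listed genes of nucleotide excision repair were tested and none was called, so that pathway is barely covered. Checkpoint genes gave 1 rise and 5 falls among 14, against 16.5% and 14.5% of all genes. Without cisplatin replicate 1 they gave only 1 rise and 1 fall. TOPBP1, an activator of the kinase ATR, was the only checkpoint gene to hold its call throughout, with a fall of 0.38. CHEK1 fell by 0.32 with an adjusted p of up to 0.090 when an array was left out, and ATR differed by -0.14.

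Cell division genes fell widely though modestly. They are silent in resting cells, and many carry the letters TTTGAA (the cell cycle genes homology region, CHR) near their start, where the DREAM complex binds, together with CCAAT boxes bound by NF-Y. TTTGAA was in the window of 20 of the 29 tested cell division genes that have one, in 11 of the 16 that fell, in 10.0% of tested genes with a window and in 15.4% of all windows. CCAAT was in 22 of the 29, in 36.9% of tested genes and in 35.7% of all windows. Among the DNA replication genes TTTGAA was in 0 of 13 windows. The letters were thus frequent on the list among members that fell and among those that did not. The 100 bases before the start are shown for PLK1 (chr16:23678789-23678888, plus strand), PRC1 (chr15:90994536-90994635, minus strand) and KIF11 (chr10:92593030-92593129, plus strand) because they show how close both motifs lie to the start, with both in capitals.
PLK1: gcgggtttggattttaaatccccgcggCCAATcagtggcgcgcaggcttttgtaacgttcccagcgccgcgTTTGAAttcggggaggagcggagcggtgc
PRC1: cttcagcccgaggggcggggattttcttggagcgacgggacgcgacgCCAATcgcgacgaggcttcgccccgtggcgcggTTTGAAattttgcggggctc
KIF11: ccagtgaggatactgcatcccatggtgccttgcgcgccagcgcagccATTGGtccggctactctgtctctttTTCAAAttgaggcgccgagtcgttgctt
TTTGAA or its complement begins 29, 20 and 28 bases before the start, and the CCAAT box 73, 53 and 53 bases before it. In KIF11 both stand on the opposite strand, as TTCAAA and ATTGG.

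Of 33 tested cell division genes 16 fell and 1 rose, against 14.5% and 16.5% of all genes. Their median was -0.29, and without cisplatin replicate 1 there were 13 falls. PLK1, a mitotic kinase, read 6.97, 7.10 and 7.08 with vehicle and 6.53, 6.54 and 6.54 with cisplatin, a fall of 0.51 (SE 0.073). The spindle midzone protein PRC1 and the kinesin KIF11 fell by 0.48 and 0.40. CENPI, of the inner kinetochore, read 6.67, 6.33 and 6.51 with vehicle and 4.75, 5.07 and 5.07 with cisplatin and fell most, by 1.54. BUB1, CENPK, KIF15, KIF2C and CDC20 fell by 0.87, 0.74, 0.73, 0.54 and 0.54. TOP2A and the proliferation marker MKI67 fell by 0.46 and 0.33. AURKA rose by 0.35, from 6.32, 6.26 and 6.25 to 6.55, 6.67 and 6.67. CDK1, CCNA2, CCNB2 and AURKB differed by -0.29 to 0.03 and were not called, so the list did not move evenly.

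Replication genes and cell cycle regulators also fell in part. Of 16 tested replication genes 6 fell and none rose, against 14.5% and 16.5% of all genes. Their median was -0.12, and 5 fell without cisplatin replicate 1. MCM8, a helicase of break repair, read 6.96, 7.12 and 7.10 with vehicle and 5.73, 5.82 and 5.68 with cisplatin, a fall of 1.32. Of the replicative helicase MCM4 and MCM3 fell by 0.54 and 0.34, and MCM2, MCM5, MCM6 and MCM7 differed by -0.11 to 0.06 and were not called. The loading factor MCM10 fell by 0.54 and PCNA, the sliding clamp, differed by 0.03. Of 18 tested cell cycle regulators 9 fell and none rose, against 14.5% and 16.5% of all genes, and 6 fell without cisplatin replicate 1. Only 5 of these 9 calls held with each array left out. With no level limit 7 of 21 fell, with a median of -0.08. The repressors E2F8 and E2F7 fell by 0.64 and 0.58, MYBL2 by 0.39, RB1 by 0.29 and CDK6 by 0.28.

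**Figure D4:**
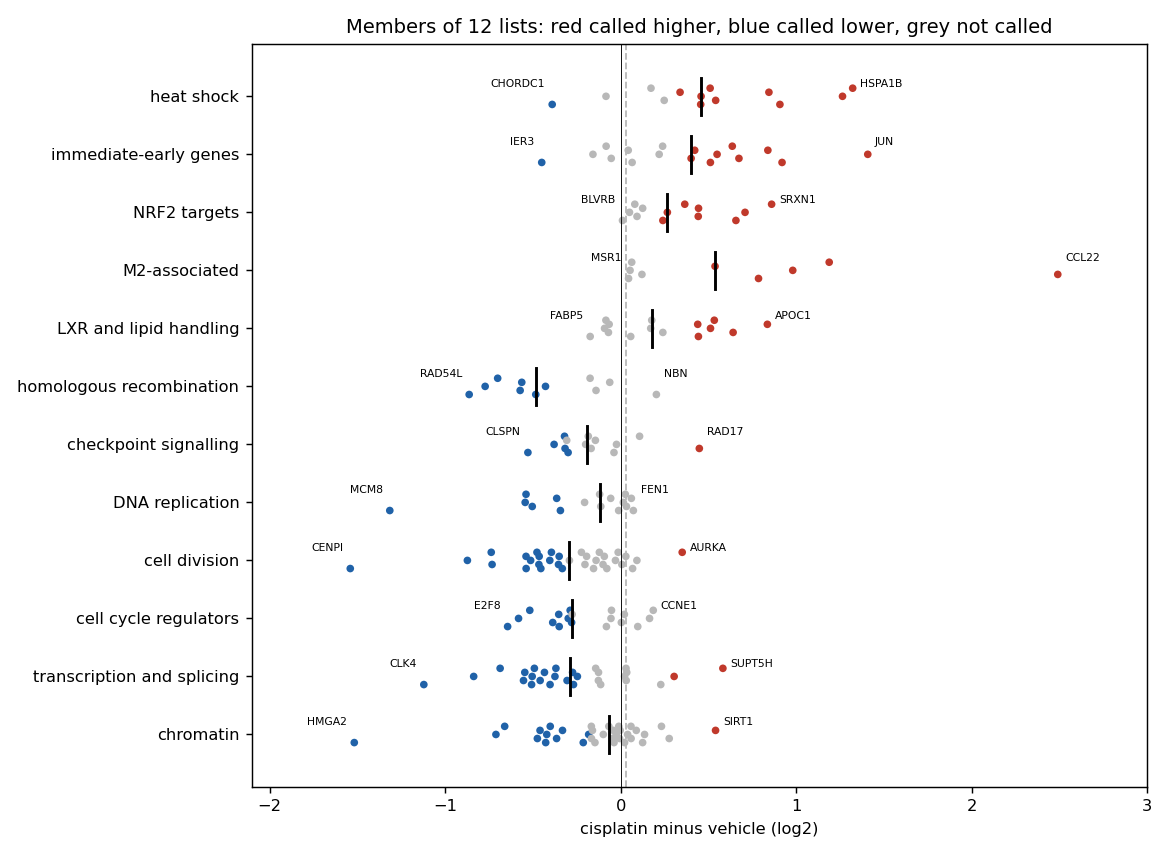
Cisplatin minus vehicle difference (log2) of every tested member of 12 lists, with red for genes that rose, blue for genes that fell and grey for those not called. Black bars are list medians and the dashed line is the median of all genes tested, 0.03. The lowest and highest member of each list is named, such as JUN at 1.41 among immediate-early genes and CENPI at -1.54 in cell division.

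Splicing and chromatin genes were the other large downward groups. Of 28 tested genes of transcription and splicing 17 fell and 2 rose, against 14.5% and 16.5% of all genes. Their median was -0.29, and without cisplatin replicate 1 the count of falls was 14. CLK4, a kinase of SR proteins, read 5.28, 5.35 and 5.20 with vehicle and 4.03, 4.27 and 4.17 with cisplatin, a fall of 1.12 (SE 0.107). The RNA-binding HNRNPA1 fell by 0.84, HNRNPH1 by 0.69 and HNRNPA2B1 by 0.46. The SR proteins SRSF11, SRSF7 and SRSF3 fell by 0.55, 0.55 and 0.43, and RBM5, CCNT2 and TRA2A by 0.51, 0.50 and 0.49. The elongation factor SUPT5H rose by 0.58. Outside the list the splicing repressor PTBP2 fell by 1.12, the cyclophilin NKTR by 1.16 and the MYB-like factor DMTF1 by 1.19.

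Among 35 chromatin genes 12 fell and 1 rose, against 14.5% and 16.5% of all genes. Of the chromatin genes 10 fell and 3 rose without cisplatin replicate 1. Their median was -0.07 against 0.03 for all genes. HMGA2, an architectural protein of embryonic and transformed cells, read 8.17, 8.47 and 8.38 with vehicle and 6.69, 6.85 and 6.92 with cisplatin, a fall of 1.52 (SE 0.116). HDAC9, the maintenance methyltransferase DNMT1 and the Polycomb methyltransferase EZH2 fell by 0.71, 0.66 and 0.47. TET2, KAT2A and ARID1A fell by 0.40, 0.42 and 0.36. The deacetylase SIRT1 rose by 0.54, with an adjusted p of 0.051 without cisplatin replicate 2.

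Several of the largest protein-coding falls lie in places the array cannot resolve well. SUMO4, which lies within TAB2, fell by 1.83 and read 6.90, 6.94 and 7.38 with vehicle and 4.75, 5.33 and 5.66 with cisplatin. NPIPB5, NPIPA1, ANKRD36B and NOTCH2NLA belong to families of nearly identical copies and fell by 1.35, 1.32, 1.55 and 1.49. The meiotic recombination partner MND1 fell by 1.27, CD24 by 1.15 and the metabolic enzyme GLUD1, which overlaps SHLD2, by 1.08. The zinc finger genes ZNF107, ZNF93 and ZNF141 fell by 1.23, 1.20 and 1.13.

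Genes that do not code for protein fell more often than coding genes did. Of 664 tested, 60 rose (9.04%) and 158 fell (23.8%), against 1167 (17.2%) and 923 (13.6%) of 6778 protein-coding genes. They were dimmer, with a median level of 5.17 against 5.79, and their median standard error was 0.136 against 0.106. Whether the class itself differs was not tested. Falls numbered 76 (29.7%) and rises 18 among 256 long non-coding RNAs, and 36 (29.3%) and 11 among 123 pseudogenes with transcripts. Without cisplatin replicate 1 these counts were 61 and 18, and 33 and 13. Of 252 microRNA genes 42 fell (16.7%) and 19 rose (7.54%), so their share of falls was near the 14.5% of all genes tested. Without cisplatin replicate 1 the microRNA counts were 52 and 8. The only gene of any class to fall at least 4-fold was MIR612, named here after its value was seen. It lies inside the long non-coding RNA NEAT1 at chr11:65444458-65444557 and read 8.32, 8.70 and 8.77 with vehicle and 5.22, 5.81 and 5.67 with cisplatin, a fall of 3.03 (SE 0.155). MIR221, named after its value was seen, lies inside MIR222HG and fell by 1.86, from 6.27, 6.32 and 6.68 to 4.23, 4.61 and 4.85. Labelling covered whole transcripts, so such rows cannot part the mature microRNA from its precursor or host transcript. The mature miR-221-3p, for which RefSeq gives a sequence at chrX:45746180-45746202 on the minus strand, is shown to identify it, with the seed (bases 2 to 8) in capitals.
miR-221-3p: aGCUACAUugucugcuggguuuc

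Finally the cisplatin arrays were set directly against the osimertinib arrays. The difference uses no vehicle array, while its test shares the spread of all 9 arrays. The drugs gave similar arrays, with correlations across genes of 0.974 to 0.985. Of the 7442 genes 130 differed (1.75%), 73 higher and 57 lower with cisplatin, and 82 of them also differed between cisplatin and vehicle. The number of genes differing between cisplatin and osimertinib was 147 without cisplatin replicate 1, 67 and 54 without replicates 2 and 3 of cisplatin, 76, 75 and 76 without replicates 1, 2 and 3 of osimertinib, and 105, 96 and 106 without those of vehicle. Calls against osimertinib were not followed gene by gene through these settings. In 36 genes cisplatin was above both other groups and in 17 below both.

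Among genes above both other groups, CXCR4 read 7.78, 8.04 and 8.04 with cisplatin against means of 6.85 with vehicle and 7.14 with osimertinib. Cisplatin minus osimertinib was 0.81 (SE 0.104, adjusted p = 0.0010). CPA4, IL36RN and UCN2 were above osimertinib by 0.76, 0.67 and 0.65, SESN2 by 0.54, CD209 by 0.52 and CCL5 by 0.45. SRGN was 0.45 above osimertinib, HMOX1 0.50 and EGR1 0.44. SRXN1, PGD and JUN differed from osimertinib by 0.02 to 0.11 and were not called. The heat shock genes HSPA1A and HSPA1B differed from osimertinib by -0.05 and -0.0031 (adjusted p = 0.86 and 0.995), with standard errors of 0.072 and 0.059. Among genes below both other groups, LMO4 read 5.32, 5.56 and 5.51 with cisplatin against means of 6.12 and 6.04, and FAT1, a large cadherin, was 0.42 below vehicle and 0.39 below osimertinib. ZNF138, ZNF610, ZNF85 and ZNF100 were 0.43 to 1.12 below osimertinib. TLR4 was 0.48 below osimertinib and 0.41 below vehicle, and the latter was lost without vehicle replicate 2 (adjusted p = 0.054).

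A further set lay between vehicle and osimertinib or on the other side of vehicle. STC1, a secreted glycoprotein hormone, read 7.32, 7.50 and 7.42 with vehicle, 6.30 on every cisplatin array and a mean of 4.63 with osimertinib. It fell by 1.11 against vehicle and was 1.67 above osimertinib, and the equal cisplatin values make its spread look smaller than it may be. CXCL8 and CCL20 fell against vehicle and were 0.98 and 0.77 above osimertinib. ODC1 rose against vehicle and was 1.00 below osimertinib, and IRF8 rose against vehicle and was 0.54 below osimertinib. MMP19 and S100A9 were 0.89 and 0.83 above osimertinib. None of the changed genes of repair, replication, division, cell cycle control or splicing named above was called between the drugs, and their differences lay between -0.37 and 0.28.

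**Figure D5:**
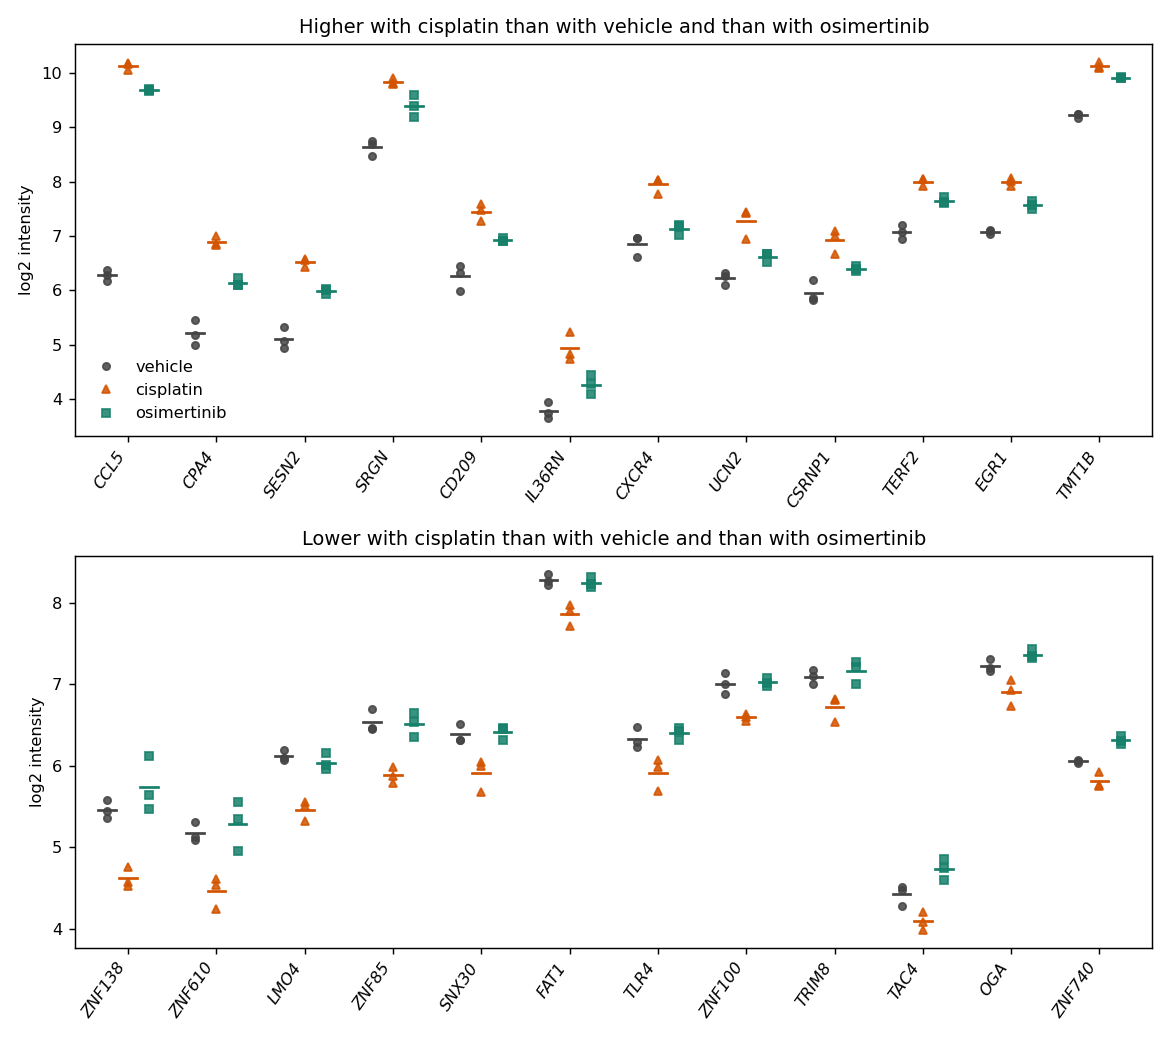
Array values (log2 intensity) of genes called higher (top) or lower (bottom) with cisplatin both against vehicle and against osimertinib, the 12 largest differences from vehicle each way. Grey circles are vehicle, orange triangles cisplatin and green squares osimertinib, and bars are means of 3 arrays. CXCR4 and CPA4 are well above osimertinib, while TMT1B is only a little above it.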

How the data were processed

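RNA was extracted with Trizol and hybridised to 9 Affymetrix Human Gene 2.0 ST arrays, per the labels' protocols. The authors deposited 1 table of normalized log2 values, and the array columns have near equal distributions, with medians of 3.29 to 3.37. The log base was read from the range of the values. The submitters' processing notes name Affymetrix Power Tools, and its version, the background correction and the summarization were not given in the sources used here.

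Of 53617 rows, 16098 carry 1 gene symbol in the platform annotation, and all of these matched RefSeq (GRCh38.p14). The brightest row of each of the 14884 genes was kept, and genes whose level reached the median gene level were tested. Limma 3.58.1 in R 4.3.3 fitted 3 group means over the 9 arrays with trended, robust empirical Bayes moderation and 6 residual degrees of freedom, and p-values were adjusted over all 7442 tested genes by Benjamini-Hochberg. Differences are given with the standard error of the fit. The fit was also run on simulated data with independent noise and far fewer changed genes than were called here. That run checks the code and not the calls. Genes named are the 30 largest protein-coding rises and falls whose groups do not overlap, up to 8 called members of each list by smallest p, 24 preset genes, the 12 largest differences each way from both other groups and the 12 brightest called each way. Uncharacterised symbols were only counted, and some items are not reported here. The lists and genes were chosen with earlier results of these data known. The alternatives covered the level filter, normalization, variance model, rows, threshold, block and each array left out.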

Additional observations from a re-analysis of the deposited data

How the results depend on the processing

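Of the 342 genes named by the rule, 334 were called and 247 of these held their call under every alternative apart from the stricter adjusted p of 0.01. The counts of 1227 higher and 1081 lower genes stayed within 1.5 times under most settings. The exceptions were 1968 higher after a further quantile normalization, and 742 higher and 699 lower at an adjusted p under 0.01. The genes differing between cisplatin and osimertinib, 130 in the comparison as fitted, numbered 76 with no filter on level, 218 after quantile normalization, 85 after median centring, 63 with no trend and no robust fitting, 49 at the 0.01 threshold and 54 to 147 with each array left out. TSPAN3 turned from 0.64 to -0.57 when all rows of the gene were averaged. With any of the 9 arrays left out, 885 to 1355 genes were higher and 847 to 1021 lower. A fit with the replicate block gave 1128 higher and 1027 lower genes and 108 between the drugs. Cisplatin and vehicle arrays of the same number had deviations correlated at 0.126, 0.0030 and 0.053, so the numbers were not taken to pair the samples. The cause of these shifts was not tested. The smaller counts at 0.01 follow from the stricter threshold. Dim genes were measured less precisely, with a median standard error of 0.126 in the dimmest of 4 equal groups of tested genes and 0.0783 in the brightest.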

Other observations

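Zinc finger genes with ZNF symbols were not a list of the comparison and were counted after values of some were seen. Of 229 tested, 20 rose (8.73%) and 45 fell (19.7%), against 16.5% and 14.5% of all genes tested, with a median difference of -0.05. Without cisplatin replicate 1 the counts were 21 and 37. ZNF107 fell most, by 1.23 (SE 0.091), and ZNF175 rose most, by 0.91. Many of these genes code for DNA-binding proteins and lie in clusters of similar copies.

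Rows with no gene name also leaned downward. Of 10112 unnamed rows at or above the level limit, 1189 were higher (11.8%) and 2012 lower (19.9%), with a median difference of -0.012. Of 7924 named rows 1105 were higher (13.9%) and 1032 lower (13.0%). What the unnamed rows measure was not analysed here.

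Calls became more frequent with level. Of 4 equal groups of tested genes by level, in the dimmest 8.49% rose and 7.68% fell, and in the brightest 25.4% rose and 22.4% fell. At least 2-fold, 18 genes changed in the dimmest group and 47 in the brightest.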
